A study of Homo sapiens with 6 samples.

Results

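Transcripts of 10 genes of the epidermal growth factor (EGF) receptor system were examined in A549, a line grown from a human lung adenocarcinoma and labelled as alveolar epithelial. The 10 genes were taken by name from the 58735 genes of the deposited count table. They are the ligands EREG, AREG, HBEGF, TGFA, BTC and EPGN, the receptors EGFR, ERBB2 and ERBB3, and the feedback inhibitor ERRFI1. RNA was sequenced from 3 libraries of cells given PQ (paraquat, a redox-cycling herbicide) together with SS-31, a small peptide that enters mitochondria and associates with cardiolipin, and from 3 libraries of cells given PQ alone, all labelled 48 h. Both groups thus carry PQ, and no untreated library was analysed here. No doses are given in the labels. They also do not tell if replicates came from separate cultures, and p-values here therefore reflect the spread among these 6 libraries, some or all of it possibly technical. Values per library are in the order of replicates 1, 2 and 3. The genes were chosen by name with their values in the contrast of PQ+SS-31 against PQ known, EREG being a gene called lower there. Their fold changes in that contrast are therefore given as a description with no p-value, and nothing is supported with them.

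ErbB receptors sit in the plasma membrane and carry a tyrosine kinase domain inside the cell. The ligands are made as membrane-anchored precursors, which ADAM metalloproteases cut to release the soluble growth factor. Ligand binding pairs the receptors, and the adaptors GRB2, SHC1 and SOS1 then pass the signal on to the ERK kinases. ERK activity in turn induces several of the ligand genes and ERRFI1 (MIG6), which binds the receptor kinase domain and blocks it, so the system holds a positive and a negative loop. ERBB2 has no known ligand, and ERBB3 has only weak kinase activity. Both act through dimers with the other receptors.

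Of the ligand genes, 4 lie next to each other on chromosome 4 (GRCh38) in an interval of 486 kb, from EPGN (74308473 to 74315307) through EREG (74365143 to 74388751) and AREG (74445134 to 74455009) to BTC (74744759 to 74794686, minus strand). The other 2 genes of the interval, the antisense RNAs AC021180.1 and AC239584.1, had at most 1 and 6 counts in a library. HBEGF lies on chromosome 5 (140332843 to 140346631), TGFA on chromosome 2 (70447280 to 70554193), EGFR on chromosome 7 (55019021 to 55211628), ERBB2 on chromosome 17 (39687914 to 39730426), ERBB3 on chromosome 12 (56076799 to 56103505) and ERRFI1 on chromosome 1 (8004404 to 8026308). Counts cover all annotated exons of a gene, in 4 exon blocks for ERRFI1 to 34 for EGFR, so transcripts from different starts were not separated. The strand setting of the counting is not stated in the labels. Exons of ERBB2 overlap those of MIEN1 by 571 bases and of PGAP3 by 194 bases on the other strand, those of EGFR overlap EGFR-AS1 by 186 bases and those of ERRFI1 overlap AL034417.4 by 155 bases. Reads in these stretches cannot be assigned with certainty. EGFR-AS1 and AL034417.4 had at most 10 and 20 counts in a library, against 197 to 508 for MIEN1 and PGAP3.

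The 250 bases before the annotated start are shown for EREG and its neighbours AREG and EPGN, which share a chromosomal interval but not a level, and for HBEGF, whose groups separated as those of EREG did. The groups of ERRFI1 separated too, and its window is not shown. The sequences are RefSeq's on GRCh38.p14, written 5′ to 3′ on the gene's strand, and capitals mark matches to the searched motifs on either strand.
EREG, chr4:74364895-74365144, plus strand: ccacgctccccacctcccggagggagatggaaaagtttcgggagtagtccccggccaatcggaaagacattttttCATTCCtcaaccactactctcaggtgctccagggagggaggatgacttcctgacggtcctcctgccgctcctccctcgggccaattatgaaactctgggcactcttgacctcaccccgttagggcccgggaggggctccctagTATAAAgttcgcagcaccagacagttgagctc
AREG, chr4:74444886-74445135, plus strand: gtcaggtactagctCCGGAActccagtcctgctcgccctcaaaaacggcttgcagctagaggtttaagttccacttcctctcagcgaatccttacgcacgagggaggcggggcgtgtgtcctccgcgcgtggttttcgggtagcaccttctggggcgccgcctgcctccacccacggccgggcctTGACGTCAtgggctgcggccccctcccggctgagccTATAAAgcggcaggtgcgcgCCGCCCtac
EPGN, chr4:74308220-74308469, plus strand: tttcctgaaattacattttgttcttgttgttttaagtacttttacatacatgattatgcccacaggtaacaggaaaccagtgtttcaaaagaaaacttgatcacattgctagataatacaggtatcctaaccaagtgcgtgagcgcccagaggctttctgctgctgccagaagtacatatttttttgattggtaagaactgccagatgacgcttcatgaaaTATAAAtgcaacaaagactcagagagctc
HBEGF, chr5:140346604-140346853, minus strand: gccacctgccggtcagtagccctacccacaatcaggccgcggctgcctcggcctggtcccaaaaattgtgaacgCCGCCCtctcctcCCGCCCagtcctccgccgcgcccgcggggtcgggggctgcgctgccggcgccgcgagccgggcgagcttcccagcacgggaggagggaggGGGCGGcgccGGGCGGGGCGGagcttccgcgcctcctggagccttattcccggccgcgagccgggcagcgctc
The motifs searched were the TATA box, TATAAA, the AP-1 site, TGANTCA, the cAMP response element, TGACGTCA, the GC box, GGGCGG, the ETS core, CCGGAA, the TEAD site, GGAATG, and the CArG box of serum response factor. TATAAA stood on the gene's strand 32 to 27 bases before the start of EREG and 29 to 24 bases before the starts of AREG and EPGN. Of all 35116 windows in the table, 2.25% hold TATAAA on that strand within the 40 to 20 bases before the start. HBEGF had no TATAAA and 5 matches to GGGCGG, of which a pair overlap by 1 base, and 42.6% of all windows hold at least 1 such match. EREG held GGAATG on the other strand 175 to 170 bases before the start, which 11.9% of all windows hold on either strand, and AREG held 1 match each to GGGCGG and CCGGAA. AREG alone of these 4 windows held TGACGTCA, at 65 to 58 bases before the start, which 1.65% of all windows hold. None of the 4 held TGANTCA (6.57% of all windows) or a CArG box (1.16%). Among the other members, TGANTCA occurred in the window of ERBB2, as TGATTCA. It also occurred in the window of the second annotated EGFR start, as the 2 matches TGAGTCA and TGACTCA. That EGFR window also held GGAATG and 2 matches to TATAAA on the gene's strand, 1 of them 36 to 31 bases before the start. In all, 9 of the 10 members had a window in the table. A match is a description of the letters and shows no binding, and a missing match says only that these letters are not in this window.

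Total counts ranged from 16563150 to 17576827 in PQ+SS-31 libraries and from 16332061 to 16932942 in PQ libraries. Of the epithelial markers, KRT8 and KRT18 were abundant and EPCAM stayed under 1 CPM (counts scaled to a common library size with edgeR's TMM factors) in every library. The summed CPM of the 5 epithelial markers was 2310 to 2680 in PQ+SS-31 libraries and 1640 to 1890 in PQ libraries, and its part in the members' differences was not tested. KRT8 and KRT18 made up nearly all of that sum, and neither passed the edgeR threshold (edgeR adjusted p = 0.112 and 0.0879). CDH1, which encodes E-cadherin, had 21.3, 24.3 and 27.5 CPM with PQ+SS-31, against 14.8, 13.9 and 12.0 CPM with PQ, and passed the edgeR threshold (log2 fold change 0.84; edgeR adjusted p = 0.0389), whereas KRT19 had a log2 fold change of -0.23 and did not. The 4 surfactant markers summed to at most 0.534 CPM, so the alveolar label is not borne out by surfactant transcripts. Leukocyte and endothelial markers summed to at most 1.07 CPM and fibroblast markers, of which COL1A1 was the main one, to at most 22.2 CPM. CDKN2A and CDKN2B, deleted in A549, had 0 counts in all 6 libraries. The first principal component of log2 CPM, with 42.1% of the variance, ran within the groups, with PQ replicate 3 at one end (score -28.5) and PQ replicate 2 at the other (26.4). The second, with 24.3%, separated PQ+SS-31 from PQ libraries. Members whose fold change moved by over 1.5 times without 1 library are given both ways.

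The plot of the members by library shows that the ligands ranged over more than 3 orders of magnitude and that EREG and EGFR were the most abundant members in CPM.

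**Figure D1:**
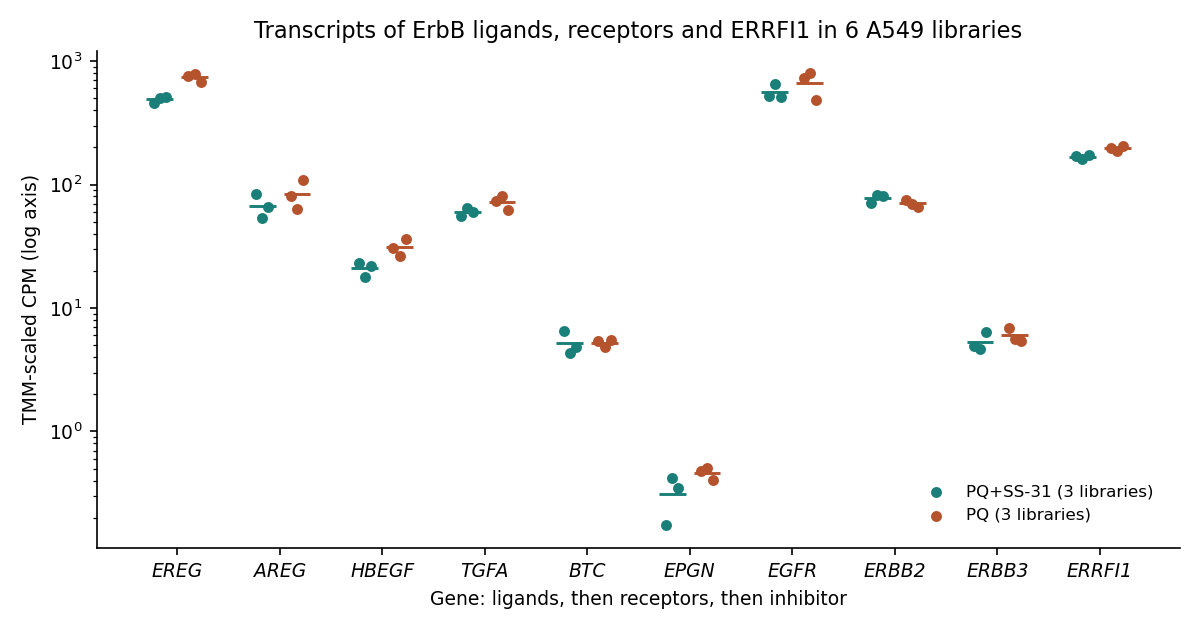
TMM-scaled CPM on a log axis for the 10 genes, with PQ+SS-31 libraries on the left of each pair and PQ libraries on the right; each point is 1 library and each line a group mean. EREG, HBEGF and ERRFI1 do not overlap between groups, and EREG has all 3 PQ+SS-31 libraries between 455 and 515 CPM against 681 to 782 CPM in PQ libraries.

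EREG, which encodes epiregulin, a ligand of EGFR and ERBB4, was the most abundant ligand transcript and was lower with SS-31. It stood at 455, 498 and 515 CPM with PQ+SS-31, against 763, 782 and 681 CPM with PQ. The highest PQ+SS-31 library lay well below the lowest PQ library, and the libraries of each group lay close together. The group means were 489 ± 31.0 CPM with PQ+SS-31 and 742 ± 53.4 CPM with PQ (SD, n = 3 each), and the fitted log2 fold change was -0.60 ± 0.10 (SE), or 65.9% of the PQ level. In bulk RNA, fewer cells that make a transcript and less of it per cell cannot be told apart. EREG was the member that passed an adjusted p of 0.05 in edgeR's quasi-likelihood test over all 15550 tested genes, in which 0.592% of genes were called, 0.463% lower and 0.129% higher. That call was known when the members were chosen, so it is a description and lends no support. Among the 72 genes called lower, 1 had a higher mean CPM than EREG in PQ libraries, and EREG ranked 52 by the size of its fall on the log2 scale. The call was lost without PQ replicate 1, PQ replicate 2 or any single PQ+SS-31 library, and was kept without PQ replicate 3; over these 6 refits the log2 fold change stayed between -0.66 and -0.55.

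HBEGF, the heparin-binding ligand of EGFR and ERBB4 that is also the diphtheria toxin receptor, had 23.2, 17.9 and 21.9 CPM with PQ+SS-31, against 30.7, 26.2 and 36.4 CPM with PQ. Its groups did not overlap, with the highest PQ library being PQ replicate 3. The log2 fold change was -0.57 ± 0.15 (SE) and the means were 21.0 ± 2.75 CPM with PQ+SS-31 and 31.1 ± 5.10 CPM with PQ (SD, n = 3 each). HBEGF did not pass the edgeR threshold, but did in 3 of the 9 other settings that kept all 6 libraries, DESeq2 among them. These calls too are a description, since HBEGF was chosen with the contrast known.

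AREG, which encodes amphiregulin, a ligand of EGFR alone, did not separate the groups although its gene is the next protein-coding gene after EREG. It stood at 83.5, 53.2 and 65.8 CPM with PQ+SS-31, against 80.8, 63.2 and 108 CPM with PQ. PQ+SS-31 replicate 1 was above PQ replicates 1 and 2, so the groups overlapped. The log2 fold change of -0.32 ± 0.21 (SE) lay between -0.50, with the first PQ+SS-31 library left out, and -0.10, with PQ replicate 3 left out. It was -0.17 with PQ+SS-31 replicate 2 left out and -0.48 with PQ replicate 2 left out.

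TGFA, which encodes transforming growth factor alpha, an EGFR ligand, had 55.3, 64.7 and 60.4 CPM with PQ+SS-31, against 74.2, 81.3 and 61.8 CPM with PQ. Of the PQ libraries, replicate 3 alone lay within the range of the PQ+SS-31 libraries. The log2 fold change was -0.27 ± 0.12 (SE), and ranged over refits from -0.38 without PQ replicate 3 to -0.18 without PQ replicate 2.

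BTC, which encodes betacellulin, a ligand of EGFR and ERBB4, was low and did not separate the groups. Its CPM was 6.54, 4.28 and 4.83 with PQ+SS-31, against 5.40, 4.80 and 5.47 with PQ, from 72 to 113 counts a library. The groups overlapped in full, with the highest and the lowest library both in the PQ+SS-31 group, and the log2 fold change was 0.00 ± 0.20 (SE), between -0.20 and 0.12 over the 6 refits without 1 library. EPGN, which encodes epigen, a low-affinity EGFR ligand, had 3, 7 and 6 counts with PQ+SS-31 and 8, 8 and 7 counts with PQ. It was the 1 member of 10 that did not pass the filter on low counts, and no fold change is given for it. A difference in EPGN was not tested in the main fit, at counts this low.

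EGFR, the receptor of all 6 ligands, varied widely within the groups, which overlapped. It stood at 518, 647 and 512 CPM with PQ+SS-31, against 728, 795 and 485 CPM with PQ. The lowest of all 6 libraries was PQ replicate 3, below every PQ+SS-31 library, and the other 2 PQ libraries were above every PQ+SS-31 library. The log2 fold change was -0.26 ± 0.18 (SE) with all libraries, -0.45 without PQ replicate 3, -0.12 without PQ replicate 2, and -0.38 with PQ+SS-31 replicate 2 left out.

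ERBB2, the ligandless partner receptor, was the member with a positive fold change. It had 71.2, 81.9 and 80.8 CPM with PQ+SS-31, against 75.2, 70.1 and 65.7 CPM with PQ. PQ+SS-31 replicate 1 lay among the PQ libraries, and the log2 fold change was 0.15 ± 0.09 (SE), between 0.10 and 0.21 over the 6 refits without 1 library. ERBB3, the neuregulin receptor, was low, at 4.92, 4.69 and 6.35 CPM with PQ+SS-31, against 6.94, 5.63 and 5.41 CPM with PQ. Its groups overlapped, with a log2 fold change of -0.17 ± 0.19 (SE). The value was -0.05 without PQ replicate 1, -0.09 with PQ+SS-31 replicate 2 left out and -0.32 with PQ+SS-31 replicate 3 left out.

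ERRFI1, the inhibitor, had the smallest spread of the members between libraries of a group. Its CPM was 169, 160 and 173 with PQ+SS-31, against 196, 187 and 205 with PQ. All PQ+SS-31 libraries lay below all PQ libraries, by a small margin. The log2 fold change was -0.22 ± 0.08 (SE), or 85.6% of the PQ level, between -0.26 and -0.19 over the 6 refits without 1 library, and did not pass the edgeR threshold.

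Of the 9 tested members, 8 had a negative log2 fold change, among them BTC, which rounds to 0.00, and 1 a positive one. Over all tested genes, 49.9% were negative. The median of the 9 was -0.26, beside a median of 0.00 over all tested genes. In 3 of the 9, EREG, HBEGF and ERRFI1, every PQ+SS-31 library was below every PQ library, an order seen in 8.86% of all tested genes, and none showed the reverse order, seen in 9.16%. The members were picked with these values known, so nothing is read from the counts.

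**Figure D2:**
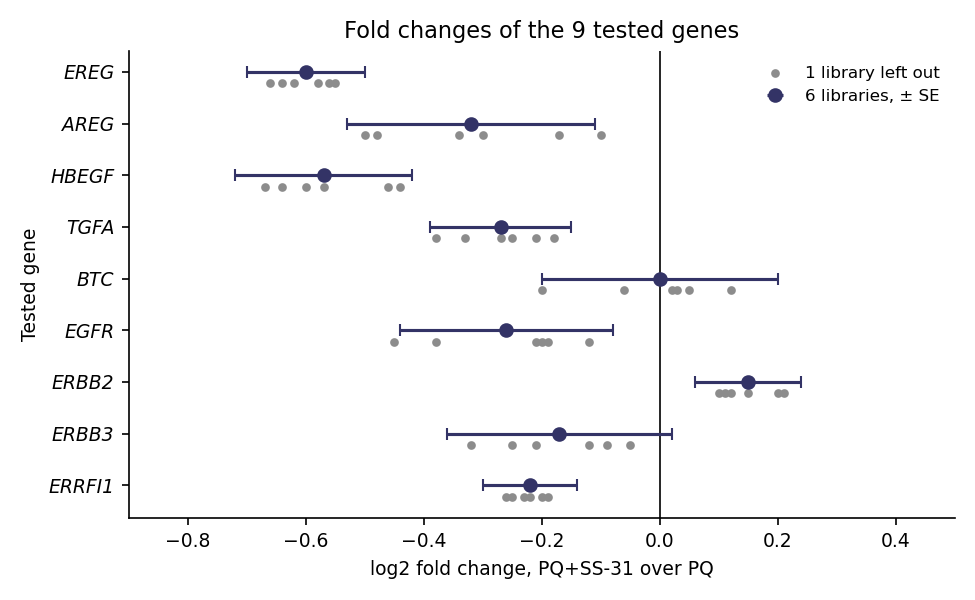
Fitted log2 fold change of PQ+SS-31 over PQ for the 9 tested genes, with bars of 1 SE, and below each the 6 values with 1 library left out (grey). EREG stays between -0.66 and -0.55, whereas AREG spreads from -0.50 to -0.10 and BTC lies on both sides of 0.

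Levels between genes were compared per length, as TPM (counts divided by gene length and scaled to a common total), which the contrast between the groups did not enter. EREG led with a mean of 342 ± 83.4 TPM over the 6 libraries (SD, n = 6), followed by EGFR with 155 ± 29.9, AREG with 148 ± 46.2 and ERRFI1 with 138 ± 18.5 TPM. TGFA had 42.3 ± 5.71, HBEGF 27.7 ± 8.22 and ERBB2 22.8 ± 1.30 TPM, and the lowest were BTC with 5.93 ± 1.23, ERBB3 with 1.99 ± 0.314 and EPGN with 0.674 ± 0.200 TPM. In TPM, EREG was above EGFR in 6 of 6 libraries, by 1.13 on the log2 scale. An exact two-sided sign-flip permutation test over the 6 libraries, whose smallest p is 0.03125, gave an adjusted p of 0.0468 over the 9 neighbouring pairs for EREG over EGFR. The same exact permutation adjusted p of 0.0468 held for ERRFI1 over TGFA, TGFA over HBEGF, ERBB2 over BTC, BTC over ERBB3 and ERBB3 over EPGN, each in 6 of 6 libraries. The order that set the pairs was taken from these same libraries. Each of these pairs was also at the smallest p, so the test adds nothing to the order in 6 of 6 libraries. The neighbours EGFR and AREG (exact permutation adjusted p = 0.75), AREG and ERRFI1 (0.738) and HBEGF and ERBB2 (0.401) did not differ beyond their spread. Without the length scale, 6 of the 9 neighbouring pairs kept their order: in mean CPM ERRFI1 stood above AREG, ERBB2 above TGFA and ERBB3 above BTC. The means of EREG and EGFR were then nearly equal, at 616 and 614 CPM, and their order changed between libraries. The gap between them in TPM thus rests on the gene lengths, 5717 bases for EREG and 12521 for EGFR.

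**Figure D3:**
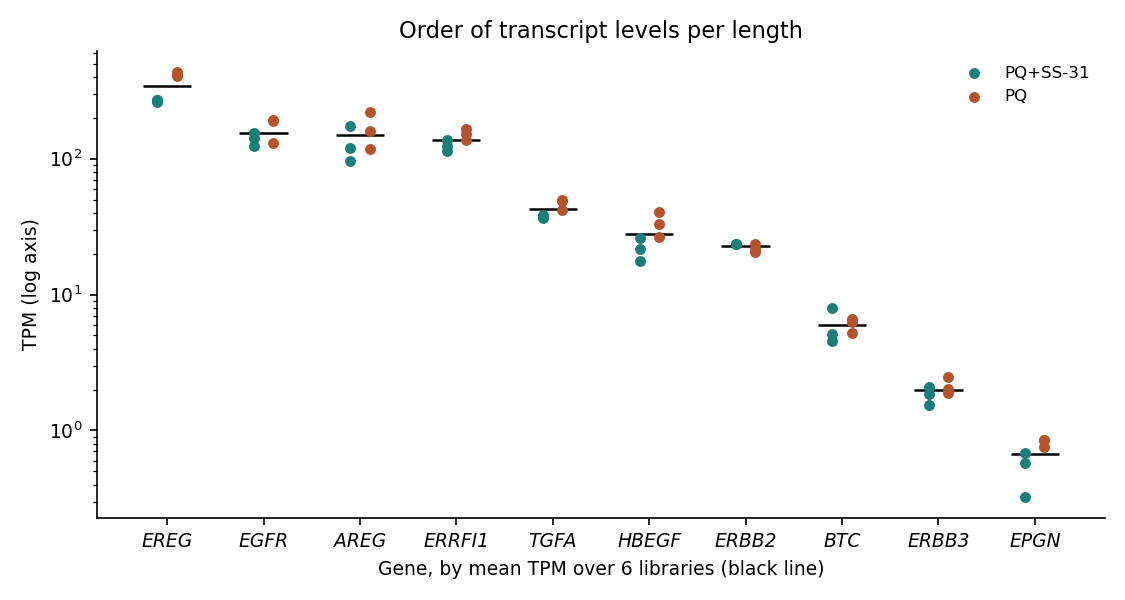
TPM on a log axis for the 10 genes in the order of their mean over the 6 libraries (black lines), with PQ+SS-31 libraries on the left and PQ libraries on the right. EREG stands above all others in every library, and EGFR, AREG and ERRFI1 share a level near 148 TPM with overlapping libraries.

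The 6 ligands together summed to 517, 417 and 453 TPM with PQ+SS-31, against 682, 617 and 715 TPM with PQ. EREG made up 52.5 to 62.2% of this sum in PQ+SS-31 libraries and 56.3 to 67.7% in PQ libraries, so EREG was over 50% of the summed TPM of these 6 ligands in every library. The other 5 ligands summed to 158 to 245 TPM in PQ+SS-31 libraries and 199 to 312 TPM in PQ libraries, which overlap. EGFR made up 82.7 to 85.9% of the TPM of the 3 receptors in PQ+SS-31 libraries and 84.8 to 89.5% in PQ libraries. The ratio of ERRFI1 to EGFR TPM was 0.977, 0.739 and 1.01 with PQ+SS-31, against 0.804, 0.702 and 1.26 with PQ. Both extremes of that ratio were in PQ libraries, and inhibitor and receptor transcripts were near parity per length. In mean CPM, ERRFI1 stood at 182 and EGFR at 614. The near parity thus rests on the gene lengths, 4186 bases for ERRFI1 and 12521 for EGFR.

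The members differed in how much they varied between libraries of 1 group. The pooled SD within groups, on the log2 CPM scale, was 0.36 for AREG and 0.30 for EGFR. This was above that of 97.0% and 94.3% of 4496 protein-coding genes with a mean of 50 CPM or more, whose median was 0.12. EREG (0.10) and ERBB2 (0.10) were near that median, TGFA was at 0.16, and ERRFI1 at 0.06 had more spread than only 13.3% of those genes. In each group, the library highest in EGFR, replicate 2, was the lowest in AREG. Along the first principal component, EGFR was lowest, at 518 and 512 CPM with PQ+SS-31 (replicates 1 and 3) and 485 CPM with PQ (replicate 3), in the libraries at its negative end. It was 647 CPM with PQ+SS-31 (replicate 2) and 728 and 795 CPM with PQ (replicates 1 and 2) at its positive end. Within each group, AREG was highest where the component was lowest, in PQ+SS-31 replicate 1 with 83.5 CPM and in PQ replicate 3 with 108 CPM. The long non-coding RNA NEAT1 was at 364, 200 and 437 CPM with PQ+SS-31 and 220, 152 and 884 CPM with PQ. It was higher in every library of negative score than in any of positive score. Within PQ+SS-31 libraries, NEAT1 was highest in replicate 3 and not in replicate 1, where the score was lowest. The part of this component in the fold changes of EGFR and AREG was not tested. The component was computed over all tested genes, the members included.

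**Figure D4:**
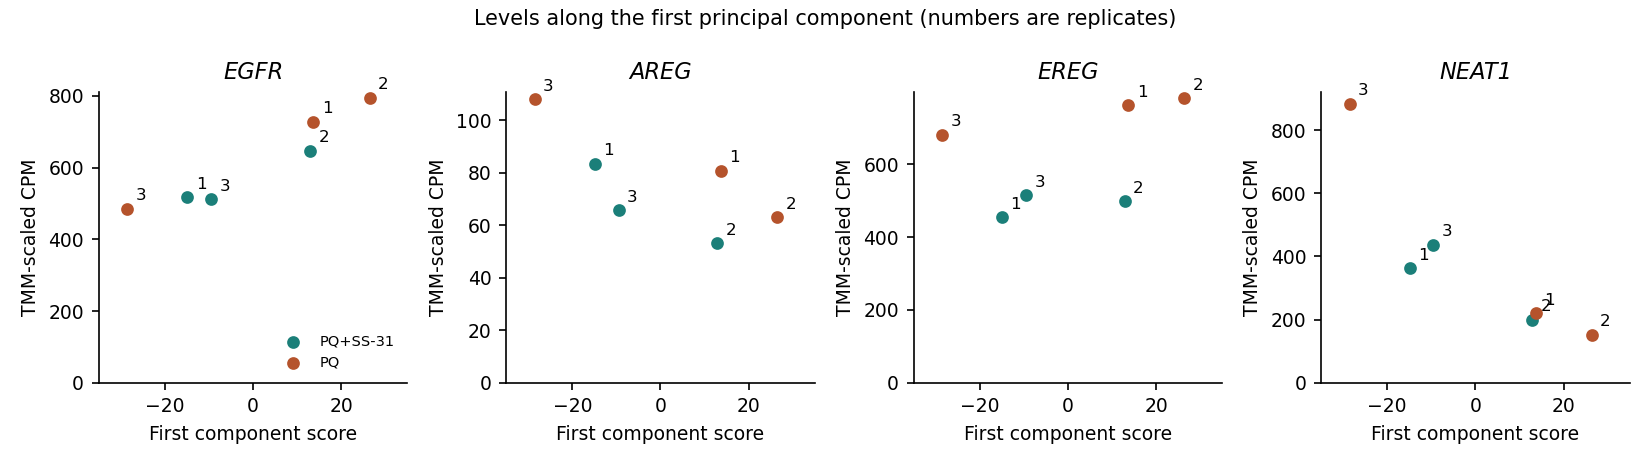
TMM-scaled CPM of EGFR, AREG, EREG and NEAT1 in the 6 libraries, plotted against the score on the first principal component; numbers are replicates and colours groups. EGFR lies at 485 to 518 CPM in the 3 libraries of negative score and at 647 to 795 CPM in the 3 of positive score, whereas EREG separates by group.

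By the root mean square difference of centred log2 CPM over the 6 libraries, the profiles most like that of EREG were, out of 10881 genes with a mean of 5 CPM or more, ETS1 (0.0404), TBX3 (0.0423) and FAM102A (0.0447). ETS1, an ETS-family transcription factor, had 73.3, 76.4 and 77.3 CPM with PQ+SS-31, against 124, 121 and 105 CPM with PQ. TBX3, a T-box transcription factor, had 34.7, 36.0 and 37.0 CPM in PQ+SS-31 libraries, against 57.7, 55.4 and 51.8 CPM in PQ libraries. Both had their lowest PQ value in replicate 3, as EREG did. These likenesses rest on the same 6 libraries and are a description.

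A further 72 genes around the receptors, in 5 lists, held no call in either direction. The lists cover other ligands and a receptor, ligand shedding, adaptors and effectors, attenuators, and endocytosis and sorting. They do not cover the ERK kinases or the genes that ERK induces, so the lack of calls does not extend to those. Of the 69 tested, edgeR called 0 higher and 0 lower, 5 were higher and 4 lower before adjustment (p under 0.05), and DESeq2 and limma-voom called 0. Over all tested genes, 5.62% were higher and 5.94% lower at the same threshold, and the median log2 fold change of the 69 was -0.05. Without PQ replicate 3, edgeR called 1 of them, CBL, lower.

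Of the ligand and receptor genes outside the 10, NRG1, a neuregulin ligand of ERBB3 and ERBB4 named here after its values were seen, was the most abundant, at 60.5 ± 4.45 TPM over the 6 libraries (SD, n = 6), above the mean TPM of TGFA. It had 197, 220 and 208 CPM with PQ+SS-31, against 230, 245 and 198 CPM with PQ, which overlap (log2 fold change -0.10 ± 0.10, SE). EGF, the founding ligand, was at 0.436 ± 0.129 TPM (SD, n = 6), and NRG2 at 9.11 ± 0.741 TPM, with log2 fold changes of 0.40 ± 0.36 and 0.16 ± 0.14 (SE). ERBB4 had at most 6 counts in a library and NRG3 at most 2, and neither was tested.

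In the list of ligand shedding, which holds ADAM proteases and the iRhom proteins RHBDF1 and RHBDF2, the median log2 fold change was 0.01 over 14 tested genes, with 2 higher and 0 lower before adjustment (p under 0.05). ADAM15 had 114, 128 and 131 CPM with PQ+SS-31, against 101, 103 and 94.6 CPM with PQ, without overlap (log2 fold change 0.32 ± 0.09, SE; edgeR adjusted p = 0.196). ADAM10, a sheddase of betacellulin and EGF precursors, had a log2 fold change of 0.22 ± 0.08 (SE; edgeR adjusted p = 0.351). ADAM17, known from mouse cells as the main sheddase of the TGFA, AREG, HBEGF and EREG precursors and named after its values were seen, had 103, 140 and 126 CPM with PQ+SS-31, against 151, 160 and 108 CPM with PQ, with overlap.

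Adaptors and effectors had a median of -0.06 over 20 genes, with 2 higher and 3 lower before adjustment (p under 0.05). GAB2, a docking protein, had 12.5, 14.8 and 16.5 CPM with PQ+SS-31, against 22.5, 19.8 and 19.9 CPM with PQ. Its groups did not overlap, and the log2 fold change of -0.51 ± 0.13 (SE) did not pass (edgeR adjusted p = 0.162). NCK1, an SH2 and SH3 adaptor, was at -0.25 ± 0.09 (SE; edgeR adjusted p = 0.337). Among receptor attenuators, 12 of 15 tested genes were negative, beside 43 of 69 over all 5 lists and 49.9% of all tested genes. The median of these 15 attenuators was -0.09. NEDD4, a ubiquitin ligase, was at -0.33 ± 0.14 (SE; edgeR adjusted p = 0.394) and PTPRJ, a receptor phosphatase, at 0.25 ± 0.14 (SE; edgeR adjusted p = 0.554). CBL, the ubiquitin ligase that marks EGFR for degradation, had 81.5, 95.4 and 75.4 CPM with PQ+SS-31, against 110, 125 and 76.8 CPM with PQ. Like EGFR it was low in PQ replicate 3, and its log2 fold change of -0.31 ± 0.17 (SE) was -0.49 without that library. Genes of receptor endocytosis and sorting had a median of -0.06 over 16 genes, with the endocytic adaptor EPN1 at 0.23 ± 0.10 (SE; edgeR adjusted p = 0.427) and the sorting protein TSG101 at -0.15 ± 0.09 (SE; edgeR adjusted p = 0.572).

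**Figure D5:**
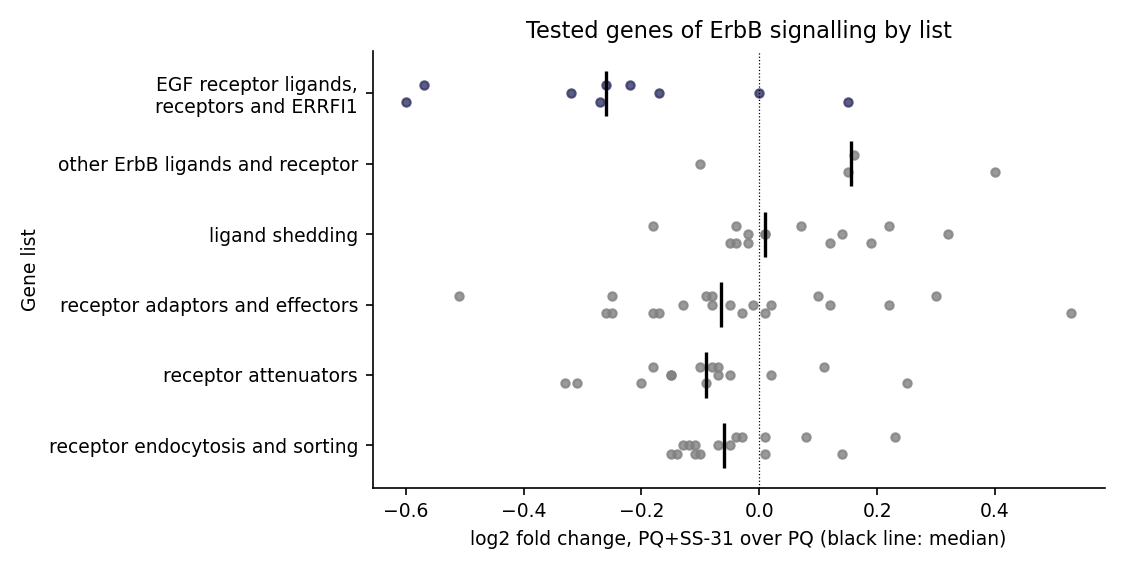
Log2 fold change of PQ+SS-31 over PQ for the tested genes of the 10 (top row, 9 genes) and of the 5 pathway lists (69 genes), with black lines at the medians. The median of the 9 genes is -0.26 and those of the lists lie between -0.09 and 0.16.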

How the data were processed

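RNA of 6 A549 libraries was sequenced, and the authors deposited raw counts per gene in 1 table of 58735 genes, with gene lengths. Per the submitters' processing notes, the tools were DESeq2 1.20.0, featureCounts 1.5.0-p3, HISAT2 2.0.5 and CASAVA, and mm10 is named as a build. All 58735 deposited gene IDs match human GENCODE 29 (GRCh38) in span and strand. The letter and number in a column's name gave its group and replicate.

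Counts were filtered with filterByExpr (minimum count 10, by group), which kept 15550 genes, scaled with TMM factors and tested with edgeR 4.0.16 (R 4.3.3; quasi-likelihood, PQ+SS-31 over PQ, Benjamini-Hochberg over all tested genes, threshold 0.05). SE is the fold change divided by the root of the F statistic. TPM used the deposited gene lengths. Components and likeness used log2(CPM + 0.5). The fit was tested on simulated data. Of 100 genes changed 1.5 times, 47 were called in the right direction, and of 100 changed 2 times, 88 were. Of the 150 calls there, 15 fell on unchanged genes, a larger share than the threshold of 0.05. Simulated counts were drawn gene by gene with no component shared between genes, unlike the real libraries, so these rates may not carry over. Alternatives were other scalings and filters, the replicate number as a block, DESeq2 1.42.0, limma-voom (limma 3.58.1) and leaving out each library; leaving out mitochondrial genes was added after seeing the data. The members and lists were chosen with earlier results of these data known. Named genes are the members, all genes from EPGN to BTC, the 3 profiles most like each called member, and from each pathway list up to 4 called genes or, with none, the 2 of smallest p. NRG1, ADAM17, CBL, NEAT1 and the untested ERBB4 and NRG3 fall outside this rule and were named after their values were seen.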

Additional observations from a re-analysis of the deposited data

How the results depend on the processing

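The counts of calls over all genes depended on the setting, while the members' fold changes moved little in settings that kept all 6 libraries. Against 20 higher and 72 lower, edgeR called 156 and 237 with no filter on low counts, DESeq2 called 123 and 207, and library size alone gave 13 higher. Leaving out 1 library gave 0 to 125 higher and 0 to 203 lower, and only the refit without PQ replicate 3 gave more calls than the fit of all 6. The labels do not say what equal replicate numbers share, and the numbers were not taken as pairs: deviations of same-numbered libraries correlated at -0.111 to 0.471 and 3 of the 6 libraries correlated best with their own number. With the replicate block, edgeR called 66 genes higher and 134 lower. EREG was called in all 9 settings that kept the 6 libraries, at -0.61 to -0.58, and in 1 of the 6 refits without 1 library, at -0.66 to -0.55. The members called lower numbered 2, EREG and HBEGF, with no filter, DESeq2 and the replicate block, where HBEGF was at -0.57, -0.57 and -0.56, and 0 to 1 without 1 library. The calls in the pathway lists were 1 lower with no filter, which was GAB2, and 0 to 1 lower without 1 library, which was CBL. The rounded fold change of BTC was negative in 6 and positive in 5 of 15 settings, and was 0 in the rest. The fold changes of the 8 other tested members kept their sign in all 15. The median over all genes stayed within -0.01 to 0.02.

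Depth limited EPGN, which had at most 8 counts a library. BTC had 72 to 113 and ERBB3 79 to 117 counts a library. Refits have fewer libraries, so a call lost there does not show a smaller change.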
